A study of Mus musculus with 9 samples.

Results

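Myeloid cells sense microbes, crystals, lipids and dying cells through C-type lectin receptors and through triggering receptors expressed on myeloid cells (TREMs). The transcripts of 10 such receptor genes were followed in RAW264.7 macrophages: Clec4d, Clec4e, Clec4n, Clec4a2, Clec5a, Clec7a, Clec12a, Trem1, Trem2 and Treml2. They were chosen by name and role from the 55487 gene identifiers in the deposited lists, with earlier results of these data known. Of these 10 genes, 9 had enough counts to be tested, and Clec7a did not. Trem1 and Treml2 passed the filter through their wild-type libraries.

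RAW264.7 is a mouse macrophage cell line, and its RNA was sequenced without stimulation of the cells, after depletion of ribosomal RNA. There were 3 genotypes with 3 libraries each. Wild-type cells (WT) carry the intact gene for the transcription factor C/EBPδ, knock-out cells (KO) are homozygous for a CRISPR deletion that shifts the reading frame, and ΔTAD cells (TAD in the labels) are homozygous for an in-frame deletion of the transactivation domain, so that the shortened protein is made from its own promoter. The edited lines are expanded single cells that passed transfection, sorting and puromycin, and the series description speaks of 3 independent clones. All cells shared the same medium, and editing and clonal selection cannot be told apart from genotype. Levels are given in CPM, counts per 1000000 of the TMM-scaled library. Because the knock-out is a frame shift, the level of Cebpd is no check of the labels. Its mean was 6.51 CPM in the wild-type, 5.44 CPM in the knock-out and 5.44 CPM in the ΔTAD libraries, and neither difference from wild-type was called (edgeR quasi-likelihood test, adjusted p = 0.085 and 0.0931).

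Most activating receptors of this group have short tails and signal through partner proteins with an ITAM, a tyrosine motif that recruits the kinase SYK once phosphorylated. FcRγ (Fcer1g) serves the lectins Clec4d, Clec4e and Clec4n, and DAP12 (Tyrobp) serves Trem1, Trem2 and Clec5a, while Clec7a carries an ITAM-like motif in its own tail. From SYK the lectin signal runs through PKCδ and the CARD9, BCL10 and MALT1 complex to NF-κB. Clec4a2 and Clec12a carry an inhibitory motif (ITIM) instead, which recruits the phosphatases SHP-1 and SHP-2.

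The libraries held between 16113306 and 20981829 counts on genes, so that the floor of 3 counts lay at 0.143 to 0.21 CPM. Here RPKM are CPM per kilobase of merged exons. ΔTAD replicate 1 stood apart, with a scaling factor of 0.888 against 0.999 to 1.03 in the other libraries and 16.28% of its records not uniquely aligned against 11.78% to 13.58%, and results that move without it are given with that value. The spread between libraries of 1 genotype was set beside sampling noise as chi-squared per degree of freedom. This was 151 for ΔTAD replicate 1 against ΔTAD replicate 2 and against replicate 3, and 2.01 to 4.2 for all other pairs. Macrophage markers were present in each genotype, except for Mertk, which had at most 2 counts in any library. A gene was called where the Benjamini-Hochberg adjusted p of edgeR's quasi-likelihood test over 14312 genes was under 0.01. Knock-out against wild-type and ΔTAD against wild-type share the wild-type libraries and are therefore given side by side. In bulk RNA, fewer cells of a kind and less RNA per cell cannot be told apart.

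C/EBP factors bind TTGCNNAA-like sites and were named for the CCAAT box, so the sequence before the start sites of the receptor genes is shown first. RefSeq promoters of GRCm38.p6 were found for 8 of the 10 genes, and Clec4n and Treml2 had no entry. In the 250 bases before the start, both strands were searched for the C/EBP letters TTGCNNAA, the letters of the CCAAT box, the AP-1 letters TGANTCA and the PU.1 letters GAGGAAGT, which 9.56%, 33.8%, 6.75% and 2.44% of all 32851 promoters hold. The letters of C/EBP were found in 2 of the 8 genes, Clec4e and Clec12a, those of CCAAT in 3 (Clec4e, Clec7a and Trem2), those of AP-1 in 2 (Clec12a and Trem2) and those of PU.1 in 0. Shown 5′ to 3′ along the gene's strand, with matches in capitals, are the promoter of Clec4e, the only tested receptor gene called in opposite directions in the 2 edited genotypes, and those of Trem1 and Trem2, which lie in 1 cluster and moved apart. They cover chr6:123289872-123290121 on the minus strand, chr17:48232489-48232738 on the plus strand and chr17:48346151-48346400 on the plus strand.
Clec4e: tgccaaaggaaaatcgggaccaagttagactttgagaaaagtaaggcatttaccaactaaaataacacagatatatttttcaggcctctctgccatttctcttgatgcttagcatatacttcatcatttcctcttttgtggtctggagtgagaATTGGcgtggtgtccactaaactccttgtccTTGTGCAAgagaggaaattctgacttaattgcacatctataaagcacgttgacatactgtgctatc
Trem1: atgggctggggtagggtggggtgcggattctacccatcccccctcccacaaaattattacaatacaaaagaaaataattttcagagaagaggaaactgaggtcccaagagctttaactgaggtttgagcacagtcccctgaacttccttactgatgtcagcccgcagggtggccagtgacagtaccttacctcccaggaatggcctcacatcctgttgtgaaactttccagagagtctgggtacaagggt
Trem2: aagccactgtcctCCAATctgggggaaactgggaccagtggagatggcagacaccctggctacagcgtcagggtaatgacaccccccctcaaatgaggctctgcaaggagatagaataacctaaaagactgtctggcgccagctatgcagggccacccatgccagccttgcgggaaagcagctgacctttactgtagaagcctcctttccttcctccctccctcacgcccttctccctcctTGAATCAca
In Clec4e both matches are read on the other strand, the C/EBP letters TTGTGCAA from 66 bases and those of a CCAAT box from 97 bases before the start. The Trem1 window holds none of the 4 motifs. In Trem2 a CCAAT box begins 237 bases and the AP-1 letters 9 bases before the start. The window of Clec12a lies within an annotated exon of the gene, and its C/EBP letters, 140 bases before the RefSeq start, stand in chr6:129350094-129350121 on the plus strand.
Clec12a: taggagcaaaTTGCGCAActcgtatgaa
These matches are letters in a window and were not tested for binding.

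Per kilobase of exon, the receptors fell into an abundant and a scarce set. In wild-type macrophages Clec4d was highest at 140 ± 3.26 RPKM (SD, n = 3), followed by Clec5a at 114 ± 4.51, Clec4e at 37.7 ± 1.42 and Trem2 at 36 ± 1.22. Clec4d and Clec5a were separated from each other and from the next gene in all libraries, while the ranges of Clec4e and Trem2 overlapped. Then came Clec12a at 1.64 ± 0.172 RPKM, Clec4a2 at 1.48 ± 0.228, Clec4n at 1.46 ± 0.302 and Trem1 at 1.35 ± 0.0216, and each of these overlapped with its neighbour in the order. Treml2 lay below them at 0.804 ± 0.0872 RPKM, and Clec7a was last at 0.0422 ± 0.0218, from 1 to 3 counts a library.

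The order changed in the edited cells. In both, Trem2 stood above Clec4e without overlap, at 69 ± 2.15 against 61.3 ± 2.59 RPKM in knock-out and 79.1 ± 0.66 against 34 ± 2.72 RPKM in ΔTAD macrophages. Trem1 was last, at 0.0256 ± 0.0128 RPKM in knock-out and 0.0659 ± 0.0166 in ΔTAD macrophages, where its neighbours overlapped with it (Treml2 in knock-out, Clec7a in ΔTAD). Clec12a led the scarce set in each genotype and reached 11.5 ± 0.267 RPKM in ΔTAD macrophages.

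**Figure D1:**
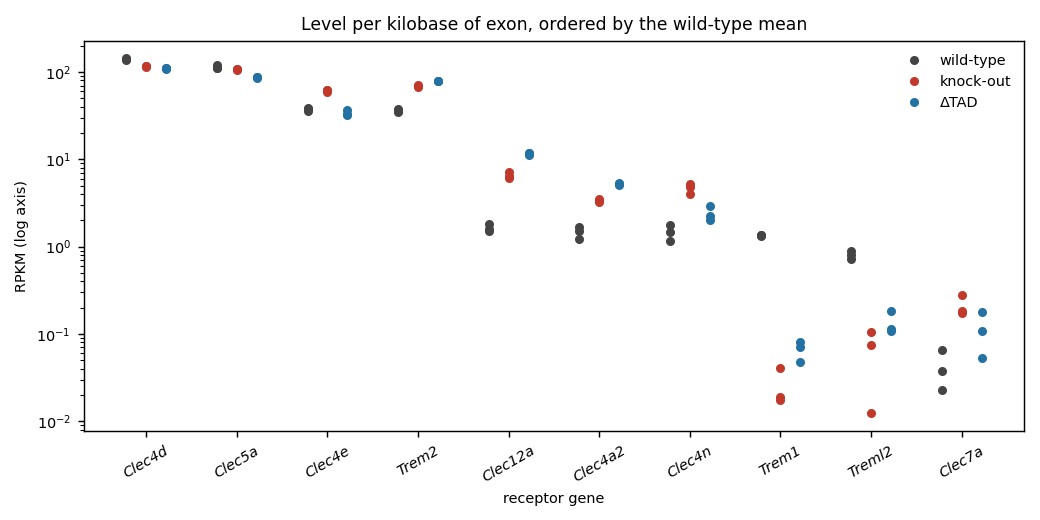
RPKM of the 10 receptor genes on a log axis, ordered by the wild-type mean, with 1 point for each of the 9 libraries coloured by genotype. Clec4d, Clec5a, Clec4e and Trem2 lie at 31.8 RPKM or more in every library and the other genes at 11.7 or less, and Trem1 and Treml2 drop from 0.718 RPKM or more in wild-type to 0.184 or less in the edited libraries.

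Among the 9 tested receptor genes, 5 rose and 3 fell in knock-out against wild-type macrophages, where 22.8% of all tested genes were called higher and 22.4% lower (45.2% in all). In ΔTAD against wild-type macrophages, 4 rose and 5 fell, beside 26.3% higher and 23.4% lower (49.7% in all). In knock-out against ΔTAD macrophages, 3 were higher, 3 were lower and 3 were not called, beside 13.9% higher and 19.1% lower (33% in all). Of all genes called in this last comparison 42.1% were higher, and 50.2% without ΔTAD replicate 1. In ΔTAD against wild-type this part moved from 52.9% to 48.5%. Trem1 and Treml2, which passed the filter through wild-type, are among those that fell. Without them, 5 of 7 genes rose and 1 fell in knock-out and 4 rose and 3 fell in ΔTAD macrophages, and the median size of the difference over these 7 was 0.94, 0.70 and 0.64 on the log2 scale in the 3 comparisons, beside 0.24, 0.27 and 0.18 over all tested genes. A called change of at least 1 on the log2 scale was seen for 5 receptor genes in each comparison with wild-type, or 3 without Trem1 and Treml2, and for 0 in knock-out against ΔTAD. Of all tested genes, 7.66%, 9.31% and 3.93% reached it. The libraries of the genotypes compared did not overlap for 9, 8 and 9 of the 9 receptor genes, and for 59.7%, 63.1% and 52.8% of all tested genes. These counts include Trem1 and Treml2, whose separation from wild-type was favoured by the filter they passed only through wild-type. Between knock-out and ΔTAD, both genes rest on few counts.

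**Figure D2:**
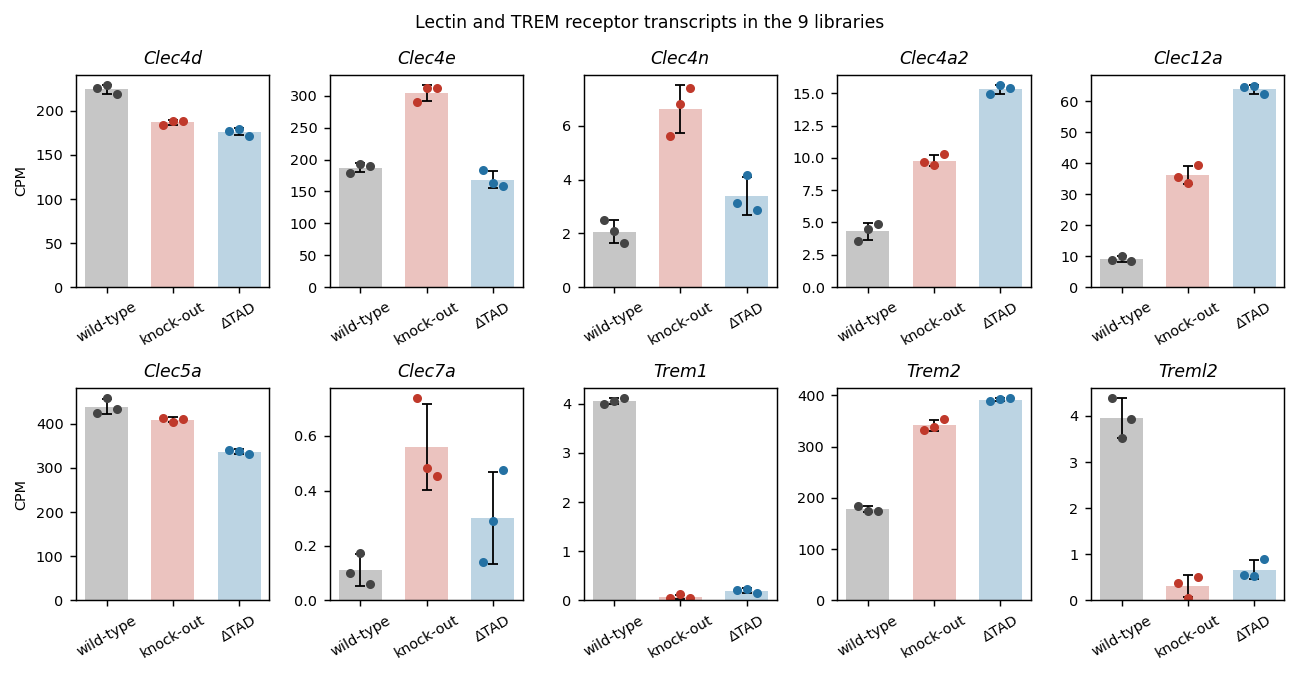
CPM of each receptor gene in the 9 libraries, with bars for the mean of a genotype, error bars for the SD and points for libraries (n = 3). Trem1 and Treml2 nearly vanish in both edited genotypes, Clec12a and Clec4a2 climb from wild-type over knock-out to ΔTAD, and Clec4e is high in knock-out alone.

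The lectins that pair with FcRγ lie side by side on chromosome 6 and did not move together. Clec4e (Mincle), which binds mycobacterial cord factor and the nuclear protein SAP130 released by dead cells, rose 1.63-fold in knock-out and fell slightly in ΔTAD macrophages. Its gene covers chr6:123281789-123289870 on the minus strand. Clec4e measured 179, 193 and 190 CPM in the wild-type, 290, 312 and 312 CPM in the knock-out and 184, 164 and 158 CPM in the ΔTAD libraries. All knock-out libraries lay above all others, while the wild-type and ΔTAD libraries overlapped. The log2 fold change was 0.70 ± 0.047 (SE) in knock-out (edgeR adjusted p = 3.69e-12) and -0.15 ± 0.0475 in ΔTAD against wild-type (adjusted p = 0.00738), and the knock-out was above ΔTAD by 0.85 ± 0.0472 (adjusted p = 3.94e-13). The small fall in ΔTAD macrophages was no longer called without KO replicate 2 (-0.15, adjusted p = 0.0125), ΔTAD replicate 2 (-0.14, 0.0305), ΔTAD replicate 3 (-0.11, 0.0553), WT replicate 2 (-0.13, 0.053) or WT replicate 3 (-0.14, 0.0274), and was -0.24 (adjusted p = 3.1e-06) without ΔTAD replicate 1 and -0.25 (adjusted p = 0.000601) when scaled by library size alone.

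Clec4d (MCL), the partner lectin with which Mincle forms a complex at the cell surface, fell by a little in both edited genotypes. Its gene covers chr6:123262111-123275265 on the plus strand. Clec4d measured 226, 229 and 219 CPM in the wild-type, 184, 188 and 189 CPM in the knock-out and 177, 180 and 172 CPM in the ΔTAD libraries. No edited library reached the wild-type range. The log2 fold changes were -0.26 ± 0.0351 (adjusted p = 5.98e-07) and -0.35 ± 0.0352 (adjusted p = 5.49e-09). Knock-out and ΔTAD did not differ at the threshold, with a 1.06-fold higher level in knock-out (95% interval 1.01 to 1.11, adjusted p = 0.0538). As a ratio of RPKM, Clec4e to Clec4d was 0.255 to 0.28 in the wild-type, 0.508 to 0.532 in the knock-out and 0.295 to 0.335 in the ΔTAD libraries, so the ratio of these partners did not overlap between any of the genotypes.

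Clec4n (Dectin-2), a receptor for fungal mannans, was scarce and rose in both edited genotypes, more so in the knock-out. Its gene covers chr6:123229843-123247021 on the plus strand. Clec4n measured 2.49, 2.08 and 1.63 CPM in the wild-type, 5.64, 6.83 and 7.42 CPM in the knock-out and 3.15, 4.18 and 2.86 CPM in the ΔTAD libraries, from 27 to 131 counts. The 3 genotypes did not overlap. The rise was 3.15-fold in knock-out (log2 1.66 ± 0.177, adjusted p = 1.82e-08) and 1.63-fold in ΔTAD macrophages (log2 0.70 ± 0.199, adjusted p = 0.00391), and the knock-out was 1.93-fold above ΔTAD (log2 0.95 ± 0.159, adjusted p = 3.57e-05). In ΔTAD against wild-type the call was lost without ΔTAD replicate 2 (log2 0.51, adjusted p = 0.0513), WT replicate 2 (0.70, 0.0129) or WT replicate 3 (0.57, 0.026).

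Clec7a (Dectin-1), the β-glucan receptor, was close to the limit of detection. Its gene covers chr6:129461591-129472779 on the minus strand. Clec7a had 2, 3 and 1 counts in the wild-type, 14, 8 and 8 in the knock-out and 2, 6 and 10 in the ΔTAD libraries. The wild-type and knock-out counts did not overlap, and the ΔTAD libraries spanned both. By summed counts per scaled library size, the knock-out was higher than wild-type by a ratio of 5.06 (exact 95% interval 2.07 to 14.9) and ΔTAD by 2.88 (1.09 to 8.86), intervals that cover counting error only. In a fit of all 26804 genes with at least 1 count, of which 25.1% were called in knock-out and 27.6% in ΔTAD against wild-type and 19.1% in knock-out against ΔTAD, the adjusted p of Clec7a was 0.000858, 0.0798 and 0.279.

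The inhibitory lectins Clec12a and Clec4a2 rose in both edited genotypes, and further in ΔTAD than in knock-out macrophages. Clec12a (MICL), a receptor for uric acid crystals from dying cells that restrains myeloid activation, covers chr6:129342691-129365303 on the plus strand. It measured 8.77, 10.1 and 8.3 CPM in the wild-type, 35.4, 33.6 and 39.3 CPM in the knock-out and 64.5, 64.9 and 62.2 CPM in the ΔTAD libraries. The 3 genotypes formed separate steps without overlap. The increase was 3.98-fold in knock-out (log2 1.99 ± 0.078, adjusted p = 1.15e-16) and 7.04-fold in ΔTAD macrophages (log2 2.81 ± 0.0721, adjusted p = 1.97e-20), and knock-out lay below ΔTAD by a log2 difference of -0.82 ± 0.0572 (adjusted p = 3.2e-11). Against the activating lectin Clec4e, the RPKM of Clec12a was 0.0392 to 0.0471 in wild-type, 0.0968 to 0.113 in knock-out and 0.315 to 0.354 in ΔTAD libraries.

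Clec4a2 (DCIR), an ITIM lectin best known from dendritic cells, covers chr6:123106428-123143999 on the plus strand. It measured 3.59, 4.46 and 4.9 CPM in the wild-type, 9.65, 9.43 and 10.3 CPM in the knock-out and 14.9, 15.6 and 15.4 CPM in the ΔTAD libraries. Again the genotypes did not overlap and stood in the order wild-type, knock-out, ΔTAD. The log2 fold changes against wild-type were 1.19 ± 0.115 (adjusted p = 3e-09) and 1.84 ± 0.106 (adjusted p = 1.65e-13), and knock-out against ΔTAD was -0.64 ± 0.09 (adjusted p = 3.37e-06). Clec4a3, its nearest tested paralog, 136.6 kb away, had log2 fold changes of -0.09 (adjusted p = 0.394) in knock-out and 0.29 (adjusted p = 0.00221) in ΔTAD macrophages. Reads that match several Clec4a genes equally well would stand in the tally of records not uniquely aligned, so the values of these paralogs are uncertain.

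**Figure D3:**
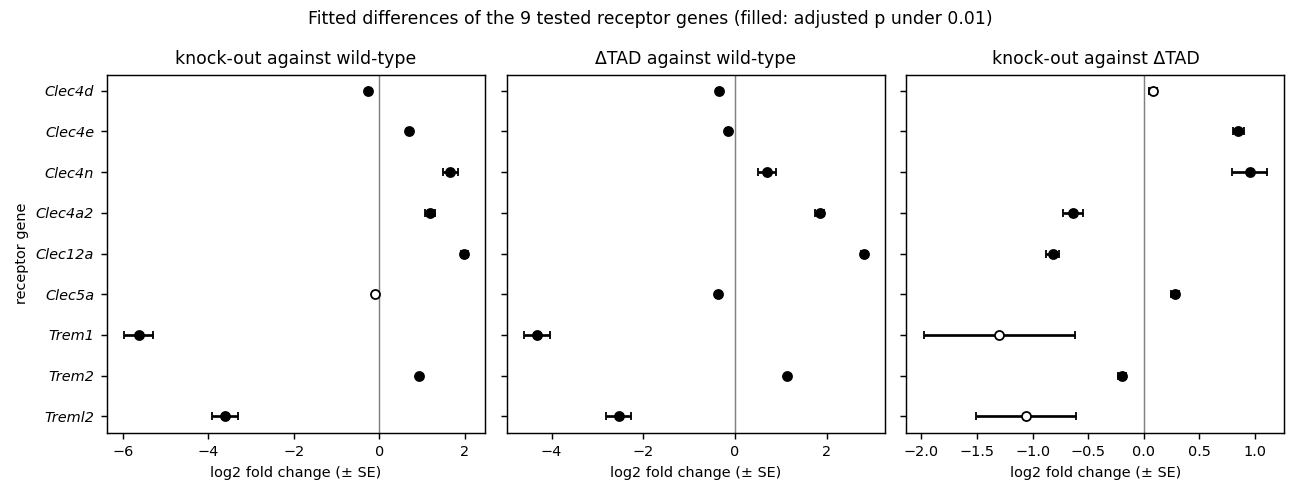
Fitted log2 fold changes with their SE for the 9 tested receptor genes in the 3 comparisons, filled where the adjusted p was under 0.01 (the horizontal scales differ between panels). In the last panel Clec4e, Clec4n and Clec5a lie to the right of 0 and Clec4a2, Clec12a and Trem2 to the left, while Clec4d, Trem1 and Treml2 are open.

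Of the receptors that pair with DAP12, Trem1 was nearly lost in both edited genotypes, Trem2 rose, and Clec5a was little changed. Trem1, which amplifies Toll-like receptor responses, covers chr17:48232768-48246924 on the plus strand. It had 80, 70 and 68 counts in the wild-type, 1, 2 and 1 in the knock-out and 3, 5 and 3 in the ΔTAD libraries. In CPM these were 3.99 to 4.12, 0.0527 to 0.121 and 0.143 to 0.24, so every edited library was far below every wild-type library. By summed counts per scaled library size, the level was lower by a ratio of 53.8 in knock-out (exact 95% interval 20.7 to 199) and 20.7 in ΔTAD macrophages (11.3 to 42). The fitted log2 fold changes, which depend on the prior count at such levels, were -5.63 ± 0.345 (adjusted p = 6.98e-13) and -4.32 ± 0.284 (adjusted p = 2.09e-12). Between knock-out and ΔTAD the ratio of 2.6 (0.772 to 11.2) was not distinguishable from 1 at this depth (adjusted p = 0.144).

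Trem2, the receptor for lipids and apolipoproteins that favours phagocytosis and survival, covers chr17:48346401-48354147 on the plus strand. Trem2 measured 185, 175 and 174 CPM in the wild-type, 333, 338 and 353 CPM in the knock-out and 388, 393 and 394 CPM in the ΔTAD libraries. The wild-type libraries were lowest, the ΔTAD libraries highest, and no genotypes overlapped. The rise was 1.92-fold in knock-out (log2 0.94 ± 0.0371, adjusted p = 1.36e-16) and 2.2-fold in ΔTAD macrophages (log2 1.14 ± 0.0371, adjusted p = 2.53e-18). Knock-out against ΔTAD was -0.20 ± 0.0363 (adjusted p = 0.000105), and -0.12 (adjusted p = 0.145) when scaled by library size alone.

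Clec5a (MDL-1), a lectin that uses DAP12 and DAP10 and is known from dengue virus binding, covers chr6:40574894-40585821 on the minus strand. It measured 425, 458 and 432 CPM in the wild-type, 413, 403 and 410 CPM in the knock-out and 340, 339 and 331 CPM in the ΔTAD libraries. The ΔTAD libraries lay below all others, and the knock-out libraries just below the wild-type. Clec5a fell in ΔTAD macrophages (log2 -0.38 ± 0.0352, adjusted p = 1.21e-09) and was higher in knock-out than in ΔTAD (0.28 ± 0.0352, adjusted p = 7.77e-07). In knock-out against wild-type the level was 1.07-fold lower (95% interval 1.02 to 1.12) and not called (adjusted p = 0.0177), although it was called without ΔTAD replicate 1 (adjusted p = 0.00656). The RPKM of Trem2 relative to Clec5a was 0.297 to 0.338 in wild-type, 0.626 to 0.668 in knock-out and 0.886 to 0.924 in ΔTAD libraries.

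Treml2 (TLT-2), a TREM-like receptor of myeloid and lymphoid cells that does not pair with DAP12, fell with Trem1. Its gene covers chr17:48299498-48312533 on the plus strand. Treml2 had 88, 61 and 65 counts in the wild-type, 7, 1 and 9 in the knock-out and 8, 11 and 19 in the ΔTAD libraries. The edited libraries stayed below all wild-type libraries. The level was lower by a ratio of 12.4 in knock-out (exact 95% interval 7.58 to 21.7, fitted log2 -3.61 ± 0.314, adjusted p = 4.63e-10) and of 5.87 in ΔTAD macrophages (4.14 to 8.52, fitted log2 -2.54 ± 0.264, adjusted p = 9.6e-09). Knock-out was below ΔTAD by a ratio of 2.12 (1.17 to 4, for counting error only), which was not called (fitted log2 -1.06, adjusted p = 0.0573). This value rests on single libraries, since it was -0.62 (adjusted p = 0.26) without KO replicate 2 and -1.56 (adjusted p = 0.0244) without KO replicate 3.

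The fall of Trem1 and Treml2 was shared by 3 genes next to them on chromosome 17. Between chr17:48232768-48327024 the annotation holds 6 genes, a pseudogene without counts and 5 protein-coding genes, Trem1, Trem3, Treml4, Treml2 and B430306N03Rik, and all 5 were tested and fell in both edited genotypes. The end of the stretch was set at the last gene that fell, and Trem1, Treml4, Treml2 and B430306N03Rik would not have passed the filter without the wild-type libraries, so this count is a description. From counts alone, a change in the DNA of this stretch that the edited cells share and a change in its transcription cannot be told apart. Trem3, a DAP12-coupled TREM of the mouse, went from 11.5 to 12.1 CPM in wild-type to 0.633 to 0.963 in knock-out and 0.42 to 1.2 in ΔTAD libraries, with log2 fold changes of -3.97 (adjusted p = 6.38e-15) and -3.88 (adjusted p = 4.62e-15). Treml4, a TREM-like receptor that binds dead cells, went from 4.86 to 5.69 CPM to 0.475 to 0.85 and 0.14 to 0.528 CPM (log2 -3.13, adjusted p = 5.39e-11, and -3.68, adjusted p = 7.64e-12). B430306N03Rik had 12 to 32 counts in the wild-type, 7 in each knock-out and 1 to 4 in the ΔTAD libraries (log2 -1.78, adjusted p = 0.000357, and -3.20, adjusted p = 2.61e-06). The counts of these genes fell to low but nonzero levels, and without ΔTAD replicate 1 all 5 were still called lower in both comparisons.

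At Trem2, 19.4 kb beyond this stretch, the direction turned. Trem2 rose as given above, Treml1, a TREM-like receptor of platelets, had log2 fold changes of 1.05 (adjusted p = 0.000644) and 0.73 (adjusted p = 0.0145, not called, but 0.88 and 0.00737 without ΔTAD replicate 2), and Nfya, a subunit of the CCAAT-binding factor NF-Y, rose by 0.81 (adjusted p = 1.01e-15) and 0.74 (adjusted p = 4.65e-15). On the other side the nearest tested gene, Foxp4, lay 308.1 kb away and rose by 0.62 (adjusted p = 9.02e-12) and 0.65 (adjusted p = 2.54e-12). Most genes of this chromosome were higher in the edited cells. Over the other 743 tested genes of chromosome 17 the median difference from wild-type (log2) was 0.48 for knock-out and 0.50 for ΔTAD. Of these genes, 66.9% and 63.0% were called higher and 4.7% and 6.5% lower. Over all tested genes, 22.8% and 26.3% were called higher and 22.4% and 23.4% lower. Relative to the median of the chromosome, Trem2 was higher by 0.45 and 0.64, Trem1 lay at -6.11 and -4.82 and Treml2 at -4.09 and -3.04. The part of the shift of the whole chromosome in the values of Trem2 was not tested.

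**Figure D4:**
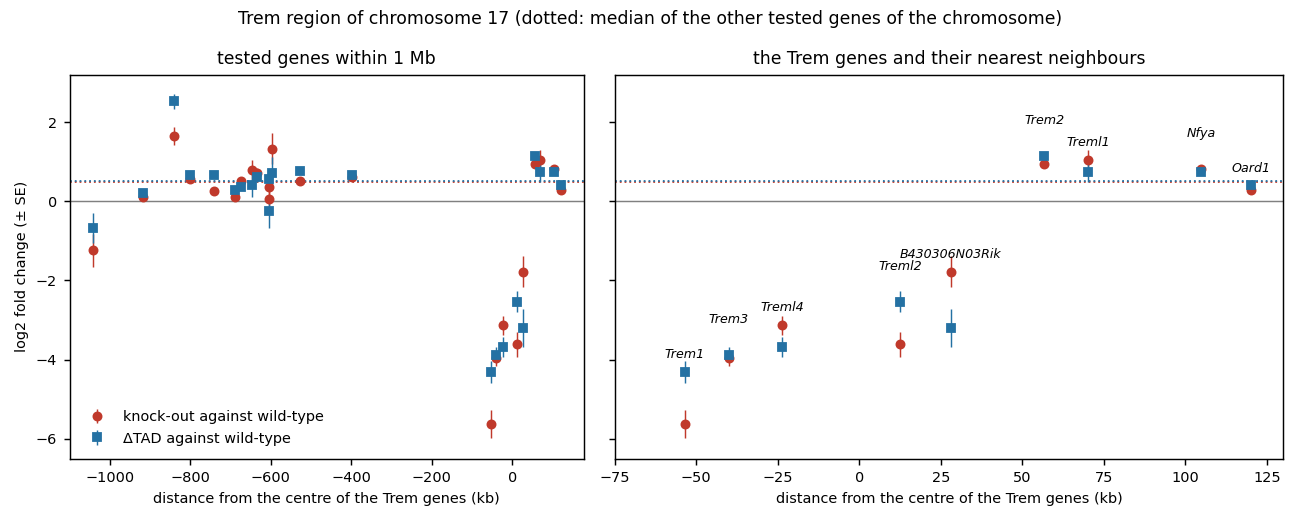
Log2 fold changes with their SE of the tested genes within 1 Mb of the Trem genes (left) and of the Trem genes and their nearest neighbours (right) against the distance from the centre of the cluster in kb, for knock-out (circles) and ΔTAD (squares) against wild-type. The 5 genes from Trem1 to B430306N03Rik lie between -5.63 and -1.78, whereas Trem2, Treml1, Nfya and Oard1 lie above 0 (the chromosome medians are dotted).

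Chromosome 6, which holds the lectin genes, was not shifted as a whole. Over its other 696 tested genes the median difference from wild-type (log2) was 0.01 for knock-out and -0.02 for ΔTAD. The counts of called neighbours below stand beside 22.8% higher and 22.4% lower of all tested genes in knock-out. In ΔTAD macrophages these shares were 26.3% and 23.4%. Within 1 Mb of the 183.4 kb that hold Clec4a2, Clec4n, Clec4d and Clec4e, 13 other genes were tested, of which 5 were called higher and 2 lower in knock-out (median -0.03) and 6 higher and 0 lower in ΔTAD macrophages (median 0.25). The nearest on the far side was Pex5, 1106.9 kb away, at -0.03 (adjusted p = 0.609) and -0.09 (adjusted p = 0.0403). Within 1 Mb of Clec12a and Clec7a, 3 of 14 genes were called higher and 1 lower in knock-out and 2 higher and 0 lower in ΔTAD macrophages, and Gm8778 was at 0.08 and -0.01 (adjusted p = 0.786 and 0.983) and Gabarapl1, which encodes an autophagy protein, at 0.17 and 0.08 (adjusted p = 0.00367 and 0.123). Within 1 Mb of Clec5a, 0 of 10 genes were called higher and 3 lower in each edited genotype, with medians of -0.13 for knock-out and -0.25 for ΔTAD, values on the same side as those of Clec5a (-0.10 and -0.38). Next to Clec5a, Ssbp1, which encodes a mitochondrial DNA-binding protein, fell by 0.36 and 0.39 on the log2 scale (adjusted p = 8.82e-08 and 1.83e-08), and Mgam, which encodes a digestive enzyme, was at 0.23 and 0.48 (adjusted p = 0.501 and 0.122).

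The shared adaptors of these receptors were abundant in all genotypes. Fcer1g (FcRγ) rose from 195 ± 8.66 CPM (SD, n = 3) in wild-type to 283 ± 7.86 in knock-out and 257 ± 6.95 in ΔTAD macrophages (log2 0.53, adjusted p = 1.8e-11, and 0.40, adjusted p = 3.4e-09). Syk rose from 95.6 ± 1.98 CPM to 124 ± 4.54 and 127 ± 2.62 (log2 0.37, adjusted p = 1.48e-09, and 0.41, adjusted p = 1.7e-10). Tyrobp (DAP12) went from 174 ± 12.2 CPM to 192 ± 9.73 and 223 ± 6.27 (log2 0.14, adjusted p = 0.00968, and 0.36, adjusted p = 2.33e-07), and the knock-out libraries overlapped with wild-type. The call of Tyrobp in knock-out was lost without KO replicate 3 (0.09, adjusted p = 0.118), ΔTAD replicate 2 (0.14, 0.0124), ΔTAD replicate 3 (0.14, 0.0113), WT replicate 2 (0.13, 0.0462) or WT replicate 3 (0.11, 0.0674). Hcst (DAP10) was scarce, at 2.83 ± 0.328, 3.36 ± 0.644 and 4.02 ± 0.848 CPM, and was not called (adjusted p = 0.253 and 0.0193).

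Of 18 adaptors and kinases next to the receptors, all tested, 11 rose and 2 fell in knock-out and 10 rose and 2 fell in ΔTAD macrophages, with median log2 fold changes of 0.25 and 0.31, where those of all tested genes were -0.001 and -0.003 and 22.8% of all tested genes were called higher and 22.4% lower in knock-out and 26.3% and 23.4% in ΔTAD macrophages. The kinase gene Src rose from 14.3 CPM in wild-type to 31.6 in knock-out (log2 1.14, adjusted p = 2.22e-13) and 20.5 in ΔTAD macrophages (log2 0.52, adjusted p = 6.78e-07). Blnk, an adaptor that links SYK to phospholipase C, rose from 18.9 CPM to 37.4 in knock-out (log2 0.99, adjusted p = 1.62e-11) and 47.4 in ΔTAD macrophages (log2 1.32, adjusted p = 2.71e-14). The kinase gene Fgr rose by 0.39 in knock-out (adjusted p = 1.21e-06) and 0.69 in ΔTAD macrophages (adjusted p = 3.43e-11). Lyn fell by 0.19 in each (adjusted p = 4.78e-05 and 4.47e-05), Plcg2 fell by 0.24 in knock-out (adjusted p = 2.14e-05) and Cbl, a ubiquitin ligase that limits such signals, fell by 0.14 in ΔTAD macrophages (adjusted p = 0.0015). In knock-out against ΔTAD, 3 of the 18 were higher and 5 lower, beside 13.9% and 19.1% of all tested genes.

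Of 15 genes of the CARD9 and transcription factor branch, 10 rose and 1 fell in knock-out (median 0.36) and 9 rose and 1 fell in ΔTAD macrophages (median 0.40), beside the same 22.8% higher and 22.4% lower, and 26.3% and 23.4%, of all tested genes. Relb, an NF-κB subunit, rose by 1.02 (adjusted p = 6.55e-09) and 1.41 (adjusted p = 5.88e-12), and Nfkb2 by 0.86 (adjusted p = 5.25e-15) and 1.03 (adjusted p = 9.07e-17). Egr2 rose in knock-out (1.28, adjusted p = 1.81e-09) and was 1.52 above ΔTAD (adjusted p = 4.91e-10), while its value in ΔTAD against wild-type was -0.24 and not called (adjusted p = 0.153). Card9 itself fell by 0.22 in knock-out (adjusted p = 0.00354) and Traf6 by 0.22 in ΔTAD macrophages (adjusted p = 3.38e-05). In knock-out against ΔTAD, 3 of the 15 were higher and 8 lower, beside 13.9% and 19.1% of all tested genes.

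The phosphatases that serve the inhibitory receptors were among 6 listed genes, of which 4 rose and 1 fell in each edited genotype (medians 0.14 and 0.15), where 45.2% and 49.7% of all tested genes were called in either direction. Ptpn6 (SHP-1) rose by 0.39 in knock-out (adjusted p = 1.33e-08) and 0.65 in ΔTAD macrophages (adjusted p = 9.22e-13). Ptprc (CD45) rose by 0.15 in knock-out (adjusted p = 0.00622) and 0.28 in ΔTAD macrophages (adjusted p = 1.07e-05), and Inpp5d (SHIP1) fell by 0.17 in knock-out (adjusted p = 0.000466). Ptpn22 rose by 0.29 in knock-out (adjusted p = 1.8e-07) and fell by 0.41 in ΔTAD macrophages (adjusted p = 7.27e-10). In knock-out against ΔTAD, 1 of the 6 was higher and 2 lower, beside 13.9% and 19.1% of all tested genes. The 5 called genes became 2 in each edited genotype when scaled by library size alone, and 3 in knock-out without KO replicate 3 or without WT replicate 1.

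Of 7 genes for ligands and sheddases, 6 were tested, and Pglyrp1, a ligand of TREM-1, had at most 1 count in any library. In knock-out 3 rose and 2 fell (median -0.04), and in ΔTAD macrophages 1 rose and 2 fell (median 0.04), where again 45.2% and 49.7% of all tested genes were called. Anxa1 rose from 99.4 CPM to 297 in knock-out (log2 1.58, adjusted p = 2.37e-20) and 476 in ΔTAD macrophages (log2 2.26, adjusted p = 2.04e-23). Clu, an apolipoprotein bound by TREM-2, fell from 3.26 CPM to 0.427 and 0.531 (log2 -2.90, adjusted p = 1.6e-08, and -2.55, adjusted p = 4.03e-08). Apoe fell by 0.48 in ΔTAD macrophages (adjusted p = 0.00317). Of the proteases that release TREM-2 from the cell surface, Adam10 rose by 0.18 (adjusted p = 0.000295) and Adam17 fell by 0.19 (adjusted p = 3.63e-05) in knock-out macrophages. In knock-out against ΔTAD, 0 of the 6 were higher and 2 lower, beside 13.9% and 19.1% of all tested genes.

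**Figure D5:**
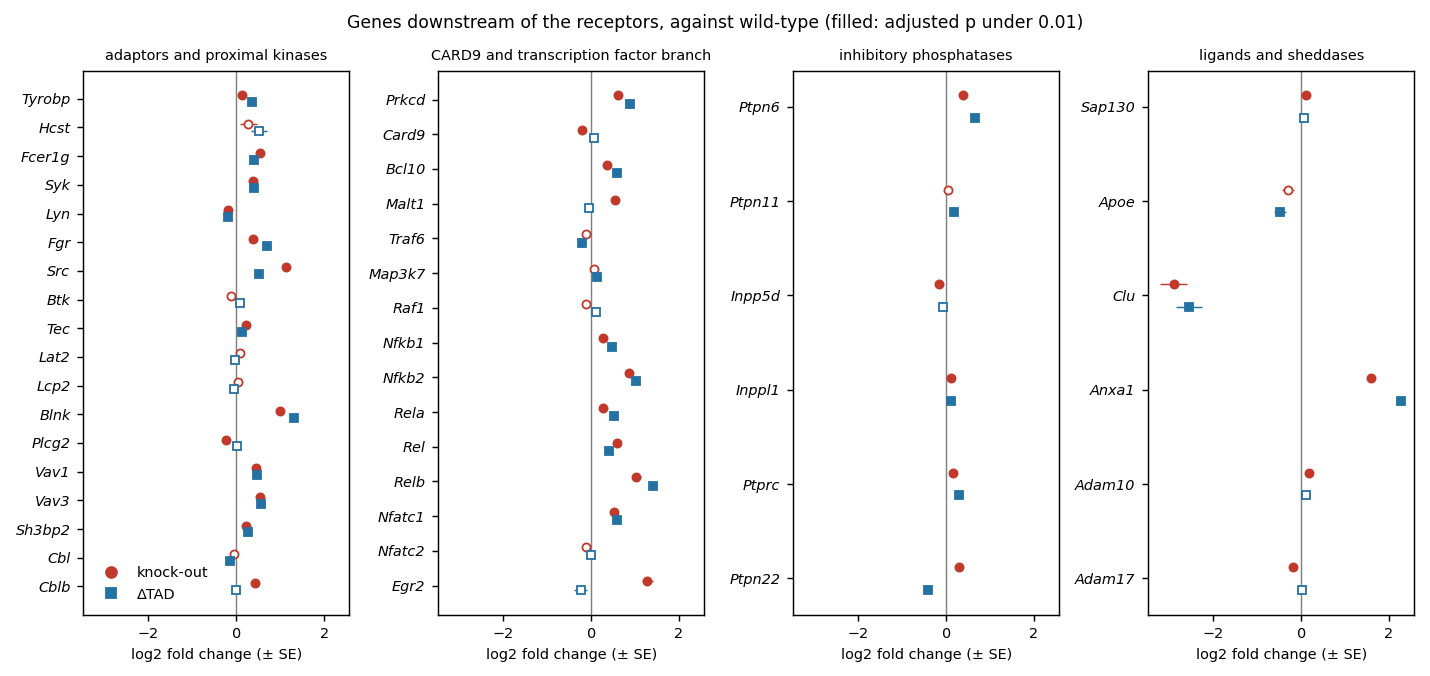
Log2 fold changes with their SE of 45 tested genes for adaptors and kinases, the CARD9 and transcription factor branch, phosphatases, and ligands and sheddases, in knock-out (circles) and ΔTAD (squares) against wild-type, filled where the adjusted p was under 0.01. Anxa1 lies farthest to the right, at 1.58 and 2.26, and Clu farthest to the left, at -2.90 and -2.55.

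Most other lectin and TREM genes were silent in these cells. Of 30 matched genes of this kind, 7 passed the filter, and 19, 22 and 20 had at most 3 counts in every wild-type, knock-out and ΔTAD library. Of the 7, 3 rose and 2 fell in knock-out (median -0.09) and 3 rose and 3 fell in ΔTAD macrophages (median 0.29), and 45.2% and 49.7% of all tested genes were called. Apart from Trem3, Treml4 and Treml1, Cd302, an endocytic lectin, rose by 0.46 (adjusted p = 4e-06) and 0.74 (adjusted p = 7.82e-10). Cd72, an ITIM lectin of B cells and macrophages, rose by 0.16 in knock-out (adjusted p = 0.000749) and 0.78 in ΔTAD macrophages (adjusted p = 3.6e-15). In knock-out against ΔTAD, 0 were higher and 3 lower, beside 13.9% and 19.1% of all tested genes.

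Some macrophage and osteoclast markers moved beside the receptors. Summed over 10 macrophage markers, the level was 3730 to 3952 CPM in wild-type, 4741 to 5122 in knock-out and 7318 to 7459 in ΔTAD libraries. The differences came mainly from the lysozyme gene Lyz2, with means of 1170, 2110 and 4190 CPM (log2 0.86, adjusted p = 5.39e-16, and 1.84, adjusted p = 1.96e-22). Of the 9 tested macrophage markers, 5 rose and 2 fell in knock-out and 6 rose and 2 fell in ΔTAD macrophages. Over all tested genes, 22.8% were called higher and 22.4% lower in knock-out and 26.3% and 23.4% in ΔTAD macrophages. In knock-out against ΔTAD, 0 of the 9 were higher and 7 lower, beside 13.9% and 19.1% of all tested genes. Adgre1 (F4/80) rose by 1.45 and 1.71 (adjusted p = 4.38e-17 and 7.6e-19), while Fcgr1 fell by 1.14 and 0.44 (adjusted p = 2.24e-12 and 5.58e-06) and Emilin2 by 0.30 and 0.13 (adjusted p = 1.54e-07 and 0.00408). Summed over 5 osteoclast markers, the level was 95.8 to 103.2 CPM in wild-type, 176.6 to 180.2 in knock-out and 1542 to 1610 in ΔTAD libraries. Nearly all of it was Ctsk, the bone-matrix protease cathepsin K, which rose by 0.88 (adjusted p = 1.24e-15) and 4.78 (adjusted p = 2.22e-29), whereas Dcstamp, which osteoclast precursors need for fusion, rose by 0.82 in knock-out (adjusted p = 5.04e-13) and fell by 0.58 in ΔTAD macrophages (adjusted p = 2.97e-09). Acp5 stood at 2.31, 3.06 and 3.06 CPM in wild-type, knock-out and ΔTAD macrophages and was not called (adjusted p = 0.0946 and 0.0918). Of the 3 tested osteoclast markers, 2 rose and 0 fell in knock-out and 1 rose and 1 fell in ΔTAD macrophages, beside the shares of all tested genes given above. The osteoclast markers Calcr and Oscar were not tested, with at most 1 and 5 counts in any library.

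Markers of other cells were near 0. Summed CPM did not exceed 1.87 for 5 dendritic cell markers, 1.43 for 5 neutrophil markers and 2.74 for 8 lymphocyte and stromal markers, among which Pecam1 fell by 1.97 and 3.78 (adjusted p = 7.95e-07 and 9.18e-10). The part of the markers' change in the levels of the receptor genes was not tested.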

How the data were processed

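RNA from 3 wild-type, 3 knock-out and 3 ΔTAD libraries of RAW264.7 macrophages was analysed. The authors deposited 1 list of raw counts per library, whole numbers on Ensembl genes with 5 tally lines, after trimming (Trimmomatic 0.36), alignment (HISAT2 2.3.4.3) and counting (HTSeq), as named in the submitters' processing notes, on GRCm38. The paper names other versions of Trimmomatic and HISAT2, so the versions used are uncertain. The counting mode and strand setting are not given in the sources used here, so overlapping genes and paralogs are uncertain. Tally lines were left out of library sizes, namely 20.58% to 25.8% of records without a gene, 0.97% to 1.24% ambiguous, 11.78% to 16.28% not unique and 11.27% to 14.61% not aligned. Genotypes were taken from the labels and replicate numbers from the donor labels. Whether wild-type libraries come from separate cultures is not given in the sources used here, and p-values measure only the spread between these libraries.

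The test was edgeR 4.0.16 under R 4.3.3 (filterByExpr with minimum count 10 and minimum total 15, TMM, quasi-likelihood F test with a mean for each genotype over all 9 libraries, Benjamini-Hochberg over 14312 genes, adjusted p under 0.01). A standard error is the fitted log2 value over the root of its F statistic, and 95% intervals of folds use 1.96 standard errors. Ratios of low counts have exact binomial intervals. Positions and exon lengths are those of GENCODE vM21, promoters those of RefSeq, and figures were drawn with matplotlib 3.10.9. The receptor genes and lists were chosen with earlier results of these data known.

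Named were all receptor genes, Tyrobp, Hcst, Fcer1g and Syk, from every other list the 2 called genes with the largest change in each direction in both comparisons with wild-type among genes that average 1 CPM or more in the higher genotype, and the nearest tested genes on both sides of the clusters. B430306N03Rik, Nfya, Oard1, Clec4a3, Pglyrp1, Mertk, Calcr, Acp5, Oscar and the other neighbours named beyond this rule were chosen after their values were seen. As alternatives served limma-voom (limma 3.58.1), DESeq2 1.42.0, other scalings, filters, samples and thresholds, the replicate block and leaving out each library in turn. Applying them to the lists and to the neighbours of Trem1, and counting without Trem1 and Treml2, was chosen after seeing the data. From 1 list 1 gene is not reported here. The fit was tested on simulated data.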

Additional observations from a re-analysis of the deposited data

Results flagged for a closer look

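The effects of knock-out and ΔTAD on 6 receptor genes differed by the direct test of knock-out against ΔTAD macrophages (edgeR quasi-likelihood test, adjusted p under 0.01). Clec4e was higher in knock-out by 0.85 on the log2 scale (adjusted p = 3.94e-13), Clec4n by 0.95 (adjusted p = 3.57e-05) and Clec5a by 0.28 (adjusted p = 7.77e-07). Clec4a2 was lower in knock-out (-0.64, adjusted p = 3.37e-06), as were Clec12a (-0.82, adjusted p = 3.2e-11) and Trem2 (-0.20, adjusted p = 0.000105). In all 6, each of the 3 knock-out libraries lay on the same side of each of the 3 ΔTAD libraries. Over all tested genes, 33% were called between these genotypes and 52.8% had libraries that did not overlap. Groups of 3 libraries were too small for the search for single outlying values.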

How the results depend on the processing

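No fold change of the receptor genes or of the 7 other genes followed turned its direction under any of the 18 alternatives that gave one, and 34 of 41 fold changes also kept their side of the threshold in all of them. Asking also for a change of 1 or more on the log2 scale left 5 receptor genes in knock-out and 5 in ΔTAD against wild-type and 0 in knock-out against ΔTAD. Without single libraries the number called was 8 to 9, 7 to 9 and 6 in these comparisons. With every library at 10 counts or more, 7 receptor genes could be tested, and 0 of the 5 genes from Trem1 to B430306N03Rik in either genotype, since each fell short in some library, and 3 other lectin and TREM genes were called in knock-out. With library size alone as the scaling, 2 phosphatases were called in knock-out and 2 in ΔTAD, and 3 ligands and sheddases in knock-out (the cause was not tested). The same scaling moved the share of higher calls over all genes from 52.9% to 39.6% in ΔTAD against wild-type and from 42.1% to 69% in knock-out against ΔTAD, with 3305 in place of 4730 genes called in the latter. Without single libraries, 3 to 5 phosphatases were called in knock-out, and all 5 genes of the Trem1 stretch were called lower. The latter is no independent check, since the end of the stretch was set at the last gene that fell. All of its tested genes but Trem3 also passed the filter only through wild-type.

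Libraries with the same replicate number did not vary together (r of -0.072 to 0.02 over 9 pairs, 0 over 0.1), so the numbers name libraries only. With the replicate block 8, 8 and 6 receptor genes were called, and Clec4e in ΔTAD (adjusted p = 0.0119) and Tyrobp in knock-out (adjusted p = 0.0102) passed the threshold no longer. Clec5a in knock-out was called by DESeq2 (adjusted p = 0.00525), by limma-voom (0.00509) and in a fit of only both genotypes (0.00846), as was Clec4d between knock-out and ΔTAD in such a fit (0.11, adjusted p = 0.00853). Depth limits Trem1, Treml2 and Clec7a, whose edited or wild-type libraries held few counts.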
